A study of Mus musculus with 4 samples.

Results

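Granule cell layer spots of the mouse olfactory bulb are described here. They are the Visium spots in which 6 granule cell transcripts, Penk, Synpr, Meis2, Tshz1, Inpp5j and Shisa8, made up the largest share of all unique molecular identifiers (UMIs, each standing for a captured RNA molecule). In each of 4 libraries, the spots with at least 500 UMIs were ranked by the summed UMIs of these genes over the total UMIs of the spot, and the top 10% were taken. The rule gave 462 of 4616 kept spots, namely 166 of 1662 in library 1, 72 of 715 in library 2, 130 of 1296 in library 3 and 94 of 943 in library 4, and these are compared with the other kept spots of the same library. The levels of the genes in the same spots chose them, so that every difference between granule cell layer spots and other spots is a description without a test.

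The study set the olfactory bulb of 1 control mouse beside that of 1 mutant mouse, both examined at 5 months. Per the labels, a transgenic soluble VEGFR1, a decoy receptor that takes up VEGF, the vascular endothelial growth factor, was expressed brain-specifically through a tetracycline-regulated Camk2a-tTA driver, and the mutant mouse had VEGF blockade at E13.5. Coronal fresh-frozen sections of 10 µm lay on capture areas whose barcoded spots each collect polyadenylated RNA from a small patch that can hold several cells: 3 control sections on 2 areas and 4 mutant sections on 2 areas. The labels do not say which alleles the control mouse carried. No tissue block, litter or processing date is used here, and 1 animal stands for each genotype. The pooled count matrix numbers its libraries 1 to 4, and these numbers match no label, so that no library stands for control or mutant, and libraries are not replicates.

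Granule cells are the most numerous neurons of the olfactory bulb and fill its deep layers. They have no axon and release GABA from dendritic spines onto the lateral dendrites of mitral and tufted cells, the output neurons, which excite the same spines with glutamate. They are replaced throughout adult life by neuroblasts that arrive along the rostral migratory stream. Among the score genes, Penk encodes the precursor of enkephalin peptides, Synpr the synaptic vesicle protein synaptoporin, Meis2 a homeodomain transcription factor and Tshz1 a zinc finger transcription factor, both used in making olfactory bulb interneurons. Inpp5j encodes a phosphoinositide 5-phosphatase, and Shisa8 an auxiliary subunit of AMPA-type glutamate receptors.

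The promoter windows of the score genes are shown because these genes chose the spots. Windows came from the RefSeq table (build GRCm38.p6, 250 bases before to 50 bases after each start), with 1 chromosome left out of the search. Those kept were of 3 of the 6 genes, Synpr, Meis2 and Shisa8. Capitals mark matches, on either strand, to the GC box CCCGCCC, the CCAAT box CCAAT, the TATA box TATAAA and the MEIS core TGACAG. Each window is written 5′ to 3′ on the gene's own strand, which is plus for Synpr and minus for Meis2 and Shisa8.
Synpr, first of 2 start sites, chr14:13284530-13284829: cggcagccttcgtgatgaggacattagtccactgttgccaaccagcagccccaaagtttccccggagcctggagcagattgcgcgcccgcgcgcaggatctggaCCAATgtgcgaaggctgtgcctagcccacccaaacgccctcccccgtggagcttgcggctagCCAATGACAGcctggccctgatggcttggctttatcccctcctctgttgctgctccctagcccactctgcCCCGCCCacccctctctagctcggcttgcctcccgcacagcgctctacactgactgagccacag
Meis2, chr2:116064570-116064869: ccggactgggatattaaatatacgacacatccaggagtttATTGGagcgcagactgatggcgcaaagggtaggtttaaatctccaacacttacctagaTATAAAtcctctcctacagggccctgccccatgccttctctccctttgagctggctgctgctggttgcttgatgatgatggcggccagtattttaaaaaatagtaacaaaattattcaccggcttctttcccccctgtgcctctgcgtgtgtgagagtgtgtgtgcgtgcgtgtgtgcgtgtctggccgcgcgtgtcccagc
Shisa8, chr15:82212766-82213065: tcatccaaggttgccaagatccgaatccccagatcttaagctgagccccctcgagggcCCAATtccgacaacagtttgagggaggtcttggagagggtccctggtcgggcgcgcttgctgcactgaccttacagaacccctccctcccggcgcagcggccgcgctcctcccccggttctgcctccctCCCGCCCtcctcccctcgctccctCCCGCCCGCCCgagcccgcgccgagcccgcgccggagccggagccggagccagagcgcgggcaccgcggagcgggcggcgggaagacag
The Synpr window held 1 GC box, 2 CCAAT boxes and 1 MEIS core, which shares 1 base with the second CCAAT box. In the Meis2 window there were 1 CCAAT box and 1 TATA box, and in the Shisa8 window 3 GC boxes, the last pair overlapping, and 1 CCAAT box. The second Synpr start site, chr14:13453708-13454007, held none of the motifs in its window and is not printed. Over the 32851 windows of the table, 37.4% held a CCAAT box. The GC box was in 25.6% of windows, the MEIS core in 19.2% and the TATA box in 13.6%. GC content was 63.7% for the printed Synpr window, 51.0% for Meis2 and 71.3% for Shisa8, against a median of 52.7% over the table.

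Granule cell layer spots, as chosen by the rule, held fewer UMIs than the rest of their libraries. Their median depth was 1679.5, 2241, 4684 and 5015 UMIs in libraries 1 to 4, against 8704, 7772, 9760 and 10447 in the other spots. The share of granule cell layer spots under 2000 UMIs was 60.2, 36.1, 7.69 and 4.26% in that order, against 8.89, 9.798, 2.74 and 1.88%. Mitochondrial transcripts made up 2.15, 2.35, 3.205 and 2.46% of their UMIs, against 9.16, 9.84, 7.59 and 7.74% elsewhere. Libraries 1 and 2 thus had the shallower granule cell layer spots, and their rankings rest on medians of 8 and 12 score UMIs per spot, against 15 in libraries 3 and 4. Summed UMIs over these spots were 425880, 208313, 710980 and 513666, so that 3 UMIs, taken as the floor, correspond to 7.04, 14.4, 4.22 and 5.84 CPM (UMIs of a gene per 1000000 UMIs of the summed spots). The score divides by total UMIs, so that a shallow spot could enter with 3 or 4 score UMIs. With a minimum of 2000 UMIs, 46.2, 73, 96 and 97.8% of the spots taken were among the original ones. All spots taken then had medians of 4058, 3174, 4992 and 5258 UMIs. With scores from spots thinned to 2000 UMIs, the shares were 37.8, 55.6, 58.4 and 70.7% and the medians 6019, 3645, 5545 and 5376.5. The part of the rule in the low depth was not tested.

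Because depth differed in this way, results are also given against other spots of like depth, those within the limits that hold the middle 80% of granule cell layer spots by UMIs, 778 to 5977.5 UMIs in library 1 and 2446.2 to 9356.8 in library 4. There were 466, 189, 542 and 328 such spots, with medians of 3541, 2974, 6408 and 6454 UMIs, and mitochondrial shares of 8.601, 6.26, 8.08 and 9.24%, still above those of the granule cell layer spots. Of these spots 39.5, 47.1, 33.9 and 28% stood in deciles 2 and 3 of the ranking by score, so that many of them come just after the granule cell layer spots. The alternative was added after the depth had been seen. Spots of different libraries shared between 62 and 603 barcodes per pair of libraries, and granule cell layer spots between 1 and 9. Visium barcodes mark array positions and recur on every capture area.

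**Figure D1:**
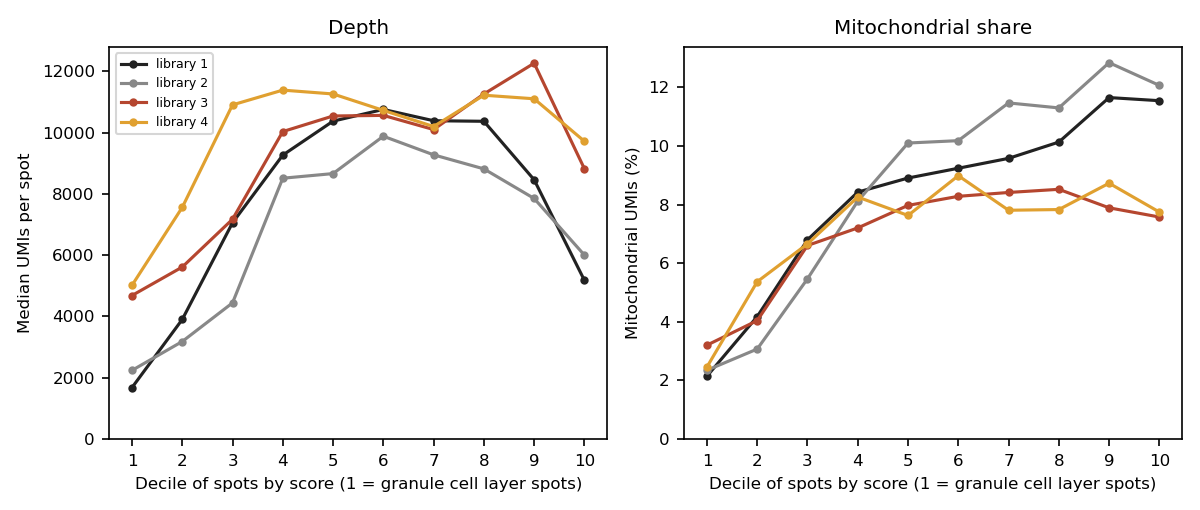
Median UMIs per spot (left) and percent of UMIs from mitochondrial genes (right) in deciles of the kept spots of each library ranked by score, where decile 1 is the granule cell layer spots. Both are higher in each decile from 1 to 4 than in the one before it in each of the 4 libraries, with 1679.5, 2241, 4684 and 5015 UMIs in decile 1 and 9264, 8510, 10032 and 11384 in decile 4.

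At the limit of the rule, the last spot inside and the first outside scored 36.1 and 36.0 score UMIs per 10000 in library 1, 39.7 and 39.4 in library 2, 26.5 and 26.4 in library 3, and 23.8 and 23.7 in library 4. The limit therefore falls in a continuous range. Median scores were 46, 47.2, 32.6 and 29.9 per 10000 UMIs in granule cell layer spots and 14.8, 16.4, 7.87 and 7.11 in other spots. The highest spots reached 99.3, 97.3, 58.3 and 50.3. A spot at the limit in library 4 would not have been taken in library 1 or 2.

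Among the score genes, Meis2 and Inpp5j gave the most UMIs in libraries 1 and 2. Meis2 was measured at 1237, 1243, 722 and 812 CPM in granule cell layer spots and 348, 396, 208 and 202 CPM in other spots, and Inpp5j at 1329, 1474, 751 and 714 against 386, 462, 174 and 133 CPM. Both were higher in libraries 1 and 2 than in libraries 3 and 4, in granule cell layer spots as well as elsewhere. Penk stood at 542, 590.5, 446 and 315 CPM against 119.7, 138, 91.7 and 75.5, and Tshz1 at 301, 341, 284 and 232 against 90.3, 109.7, 74.7 and 59.2. Shisa8 stood at 533, 571, 352 and 271 CPM against 199, 204, 83.6 and 65.4. Synpr, at 589, 682, 726 and 677 CPM against 377, 401, 248 and 259, was the only score gene whose level was lowest in library 1 within these spots.

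**Figure D2:**
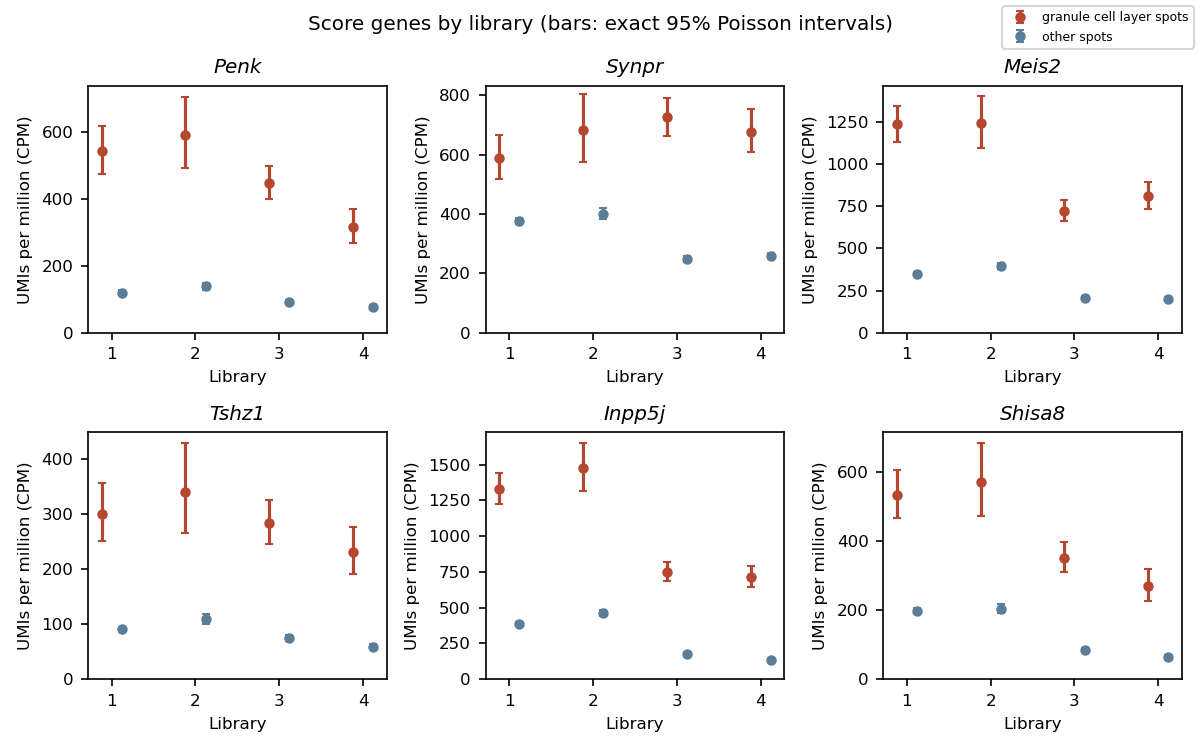
Levels of the 6 score genes in CPM, by library, in granule cell layer spots (red) and the other spots (blue), with exact 95% Poisson intervals that cover counting error only. Every red point lies above the blue point of its library, which the choice of spots fixes; the closest pair is Synpr in library 1, 589 against 377 CPM.

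Each gene was also measured in spots chosen by the other 5 genes, so that its own UMIs did not place it. Penk was then 3.25, 2.96, 3.26 and 3.25-fold above the other spots in libraries 1 to 4. Tshz1 was 2.48, 2.301, 2.97 and 3.46-fold, Meis2 2.45, 2.26, 2.53 and 2.82-fold and Inpp5j 2.43, 2.15, 3.01 and 3.37-fold higher. Shisa8 came to 2.14, 1.896, 3.34 and 3.39-fold. The smallest of these ratios belonged to Synpr, at 1.15, 1.25, 2.07 and 2.07, and in library 1 its interval included 1 (0.987 to 1.34). Spots are shared by all 6 genes, so that these ratios describe how the genes go together across spots. Against other spots of like depth, with the original choice, the lowest library's ratio was 2.74 for Inpp5j, 2.64 for Shisa8, 2.29 for Tshz1, 2.18 for Penk, 2.15 for Meis2 and 1.83 for Synpr.

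With each spot thinned to 2000 UMIs and shallower ones left out, which removed most granule cell layer spots of library 1, Penk had a UMI in 65.2%, 69.6%, 60% and 48.9% of granule cell layer spots and in 18.1%, 23.6%, 17.4% and 14.2% of other spots. Without thinning the shares in granule cell layer spots and other spots were 68.7%, 77.8%, 83.8% and 79.8% and 52%, 55.4%, 52.3% and 45.6%. Inpp5j had a UMI in 89.4%, 93.5%, 74.2% and 77.8% of thinned granule cell layer spots and 47.8%, 53.3%, 29.5% and 24.8% of other spots, against 88%, 95.8%, 91.5% and 88.3% and 81.6%, 84.4%, 67.4% and 60.7% in granule cell layer spots and other spots without thinning.

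The comparison was then extended to all genes. A gene was counted as higher when its ratio was over 2 in all 4 libraries, and as lower when it was below 0.5 in all of them, among the 9860 genes with at least 500 UMIs over the kept spots. By this rule 201 genes (2.04%) were higher and 281 (2.85%) lower. Against the other spots of like depth, 16 (0.162%) were higher and 294 (2.98%) lower. Of the 201 higher genes, 13 were over 2-fold and 198 above 1 in all 4 libraries in that comparison, and of the 281 lower genes, 205 were below 0.5. The lower group includes 134 genes with 0 UMIs in the granule cell layer spots of at least 1 library, and 78 whose levels were at or under the floor on both sides in at least 1 library. The part of depth and of the lower mitochondrial share in these counts was not tested. A lower level in a spot can mean fewer cells of a type or less RNA per cell, which cannot be told apart here. Of all tested genes, 32.8% were above 1 and 20.5% below 1 in all 4 libraries, and the counts of each gene list below stand against these 4 shares. Since the rule used these spots, the counts are read as descriptions.

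Granule cell genes outside the score divided. Of 10 such genes, 8 had enough UMIs, and 3 of them were over 2-fold (2.04% of all genes) and 4 above 1 in all 4 libraries, while the other 4 stood below 1 in at least 1 library. Pcp4, a small calmodulin-binding protein, was the most abundant at 2332, 2155, 2055 and 1859 CPM against 772, 839.6, 755 and 821, with ratios of 3.02, 2.57, 2.72 and 2.26. Gng4, a G protein gamma subunit, stood at 876, 874, 688 and 714 CPM against 345, 384, 207 and 174, and Prkca, protein kinase C alpha, at 521, 437, 266 and 284 against 158, 192, 112 and 104. Cpne4, a calcium-dependent phospholipid-binding protein, was 2.12, 1.81, 2.13 and 2.26-fold higher and missed the rule in library 2. Against spots of like depth the ratios were 1.72 to 2.88 for Pcp4, 1.44 to 3.37 for Gng4, 1.31 to 2.999 for Prkca and 1.17 to 2.303 for Cpne4, so that all 4 remained above 1 but none was over 2 in every library. Adamts19, a secreted metalloprotease with under 500 UMIs in all, had 27, 19, 29 and 38 UMIs in these spots and ratios of 6.86, 6.54, 5.299 and 8.34.

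Calb2, which encodes calretinin and marks superficial granule cells as well as periglomerular cells, went in opposite directions. It stood at 423, 336, 594 and 689 CPM in granule cell layer spots and at 959.7, 808, 405 and 420.1 CPM in other spots. Its ratios were 0.4404, 0.416, 1.46 and 1.64. Their 95% intervals were 0.378 to 0.5102 in the first library, 0.324 to 0.527 in the second, 1.32 to 1.62 in the third and 1.47 to 1.83 in the fourth. Tpbg, a membrane glycoprotein of a superficial granule cell subset, had ratios of 0.556, 0.567, 1.299 and 1.51 from 14, 7, 20 and 19 UMIs. Rasgrp1 (1.24, 1.11, 0.923 and 1.002) and the potassium channel gene Kcnc1 (0.797, 1.14, 1.02 and 1.56) lay on both sides of 1. Camk4 had 1 to 3 UMIs per library in these spots, which is at or under the floor. Over the 8 tested genes the median log2 ratio was 0.70, 0.53, 0.82 and 0.95, and 0.89, 0.36, 0.75 and 1.10 against spots of like depth. Over all tested genes these medians were 0.15, 0.18, 0.15 and 0.16, and 0.16, 0.10, 0.16 and 0.24.

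Transcription factors of the GABAergic interneuron lineage were above 1 in all 4 libraries for 9 of 15 tested, against 32.8% of all genes. Over 2-fold in all were 4, against 2.04%, and 0 at like depth. Below 1 in all libraries were 2, against 20.5%, and 1 of these was below 0.5, against 2.85%. Dlx1 stood at 389.8, 442, 318 and 360.2 CPM against 157, 174, 86.4 and 72.6. Dlx5 had ratios of 2.28, 2.26, 3.92 and 3.53, Sp9 of 2.43, 3.001, 3.05 and 4.06 and Pbx3, a partner of Meis2 proteins on DNA, of 2.29, 2.78, 3.54 and 4.097. Dlx2 (1.99, 1.75, 3.47 and 3.53) and Meis1 (2.48, 1.85, 3.96 and 5.05) missed the rule in 1 or 2 libraries. In these 6 genes the granule cell layer levels differed less between libraries than those of the other spots, which were lower in libraries 3 and 4; Dlx1, for example, spanned 318 to 442 CPM in the former and 72.6 to 174 CPM in the latter. At like depth their ratios were 1.48 to 3.74 for Dlx1, 1.32 to 2.52 for Dlx5, 1.65 to 2.74 for Sp9, 1.695 to 2.79 for Pbx3, 1.18 to 2.41 for Dlx2 and 1.15 to 4.05 for Meis1.

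The remaining factors differed by library or were low. Sp8, used by calretinin interneurons, stood at 119.8, 129.6, 113 and 130.4 CPM against 108, 111, 58.3 and 46.8. Zic1 was measured at 72.8, 62.4, 81.6 and 74 CPM against 99.6, 92.7, 57.1 and 56.2 and Etv1 at 110.4, 134, 119.6 and 107 against 129, 134, 74.8 and 63.4, and both had ratios on either side of 1. Nr2f2, an orphan nuclear receptor, stood at 0, 9.601, 9.85 and 9.73 CPM against 32.1, 28.3, 63.9 and 58.1, from 0, 2, 7 and 5 UMIs. Tshz2, a relative of Tshz1, was low as well, at 7.04, 4.8, 11.3 and 5.84 CPM against 33.7, 29.5, 19 and 19.8. Gsx2 and Prox1 had under 500 UMIs in all and at most 1 in the granule cell layer spots of any library. The list median of log2 ratios was 0.81, 0.52, 1.17 and 1.49, and 0.56, 0.24, 0.74 and 1.27 at like depth.

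The TALE homeodomain and teashirt genes are the families of Meis2 and Tshz1, whose own levels the choice of spots fixes. Among the other 9 tested, Pbx3 was over 2-fold in all 4 libraries and 6 were above 1 in all, against 32.8% of all tested genes. Ratios of Pbx4 were 2.01, 1.68, 1.76 and 1.77 and of Pknox1 2.58, 1.58, 2.38 and 1.75. Tshz2 was the member below 1 in each library. Tshz3 had 1, 1, 8 and 3 UMIs in granule cell layer spots, with ratios of 0.504, 1.505, 0.613 and 0.393. Of the inositol 5-phosphatases other than Inpp5j, which the score used, 0 of 9 tested were over 2-fold and 2 above 1 in all 4 libraries, and the abundant presynaptic member Synj1 had ratios of 1.01, 0.973, 0.965 and 0.975.

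Genes for making and packing GABA were not higher as a group: 2 of 7 tested were above 1 in all 4 libraries, against 32.8% of all genes, and 0 were over 2-fold. The list median of log2 ratios was -0.17, -0.19, 0.19 and 0.61. Gad1, a GABA-synthesising enzyme, stood at 2301, 2117, 1781 and 1766 CPM against 1313, 1368, 648 and 542, with ratios of 1.75, 1.55, 2.75 and 3.26. The vesicular transporter gene Slc32a1 followed with 554, 533, 453 and 467 CPM against 330.2, 325, 161 and 143. Gad2, the other synthesising enzyme, stood at 279, 278, 286 and 224 CPM against 309, 311, 145 and 131, below the other spots in libraries 1 and 2. Gad1 and Slc32a1 were the 2 above 1 throughout. Slc12a5, the chloride extruder of mature neurons, had ratios of 0.883, 0.765, 1.05 and 1.02. The level of Gad1 in granule cell layer spots spanned 1766 to 2301 CPM between libraries, and in other spots 542 to 1368 CPM.

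Of 12 GABA receptor subunits tested, 3 were above 1 in all libraries and 3 below 1, close to the shares of all genes, 32.8% and 20.5%. Gabra5 stood at 174, 110.4, 95.6 and 101 CPM against 58.3, 70.4, 49.5 and 41.8 and Gabrd, a subunit of extrasynaptic receptors, at 96.3, 139, 67.5 and 56.5 against 49.8, 60.6, 39.6 and 34.9. Gabra3 had lower levels, with ratios of 0.526, 0.522, 0.482 and 0.564. At like depth Gabra5 and Gabrd had ratios of 1.15 to 2.63 and 1.696 to 2.21, and 4 subunits were above 1 and 1 below 1 in all libraries. The GABA-B subunit Gabbr1, the third above 1, stood at 371, 427, 336 and 372 CPM with ratios of 1.201, 1.45, 1.04 and 1.11.

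Glutamate receptor genes, through which granule cells respond to mitral and tufted cells, were above 1 in all 4 libraries for 9 of 15 tested, against 32.8% of all genes. Over 2-fold in all were 0, and below 0.5 were 2, against 2.85%, with 0 at like depth. The NMDA receptor core subunit Grin1 stood at 808, 965, 672 and 687 CPM against 362, 421, 353 and 346. The AMPA receptor subunit Gria2 stood at 552, 624, 512 and 487 CPM against 227, 266, 285 and 284, and Gria3 at 244, 230.4, 208 and 222 against 58.8, 72.4, 116 and 127, where the granule cell layer values were alike and the other spots differed. Grik2, a kainate receptor subunit, had ratios of 2.97, 1.67, 3.64 and 2.74, and Grm5 of 3.08, 1.83, 1.28 and 1.19. Grm7 had 1, 0, 8 and 5 UMIs in granule cell layer spots. Grm3 had 0 UMIs in these spots in all 4 libraries, and its other-spot levels of 1.01 to 2.199 CPM lay under the floor of the granule cell layer spots. The list median was 0.54, 0.46, 0.47 and 0.58, and 0.79, 0.33, 0.78 and 0.87 at like depth.

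Shisa8 is an auxiliary AMPA receptor subunit, and its relatives divided. Shisa7 was higher, at 193, 149, 166 and 218 CPM against 54, 67.2, 74.3 and 74.9, while Shisa9 was lower, at 32.9, 28.8, 23.9 and 27.3 against 157, 149, 59.8 and 59.3. Shisa6 had 0, 3, 5 and 4 UMIs in granule cell layer spots, and in library 1 it was at least 8.15-fold lower than in other spots, taking the floor of 3 UMIs. Apart from Shisa8, which the score used, Shisa7 was the 1 of 11 tested auxiliary subunits over 2-fold in all 4 libraries, against 2.04% of all genes, and Shisa9 and Shisa6 the 2 below 0.5, against 2.85%. Among the others, Cnih3 had ratios of 1.91, 1.47, 1.63 and 1.83 and Cacng5 of 1.18, 1.34, 1.76 and 2.04, whereas Cnih2, a more abundant cornichon at 164, 168, 184 and 208 CPM, had ratios of 0.912, 0.929, 0.957 and 0.927. At like depth neither Shisa7, with ratios of 1.19 to 3.38, nor Shisa9, with 0.382 to 0.787, passed the rule in every library.

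Of the opioid genes other than Penk, whose level the choice of spots fixes, 5 were tested and 0 were above 1 in all 4 libraries. The enzymes that cut the precursor were present, with Pcsk2 at 89.2, 125, 98.5 and 58.4 CPM against 121, 114, 177 and 162, Cpe at 1890.2, 1848, 2209.6 and 2177 against 2429, 2222, 2192 and 2364 and Pcsk1 at 47, 28.8, 21.1 and 27.3 against 37.7, 33.9, 26.7 and 23.9. Transcripts of the delta, mu and kappa receptors were near or under the floor. The delta receptor gene Oprd1 had 0, 0, 1 and 2 UMIs, and the mu and kappa receptor genes Oprm1 and Oprk1 had 0 in every library. Oprd1, Oprm1 and Oprk1 had 14, 3 and 78 UMIs over all kept spots, too few to tell a lower level from a like one. The receptor gene Oprl1 had 36 UMIs over the granule cell layer spots of all libraries, with ratios of 0.365 to 1.01. The other precursor genes Pdyn and Pnoc had at most 3 and 9 UMIs per library.

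Synpr belongs to the physins of the synaptic vesicle, and its close relative Syp, synaptophysin, had ratios of 0.834, 0.959, 0.865 and 1.01. Among the other 14 vesicle and fusion genes tested, 5 were above 1 and 4 below 1 in all 4 libraries, close to the shares of all genes, 32.8% and 20.5%. Snap25, a SNARE protein, was the most abundant at 2825, 2889.9, 2063 and 2167 CPM against 2039.5, 2076, 1888 and 1906, and Vamp2 stood at 1972, 1714, 1617 and 1549.7 against 1306, 1292, 1060.0 and 1064. The SNARE gene Stx1a had ratios of 2.18, 1.15, 0.342 and 0.407, on both sides of 1. The vesicular glutamate transporter Slc17a7, a gene of mitral and tufted cells and forebrain excitatory neurons, stood at 305, 235, 269 and 276 CPM against 937, 836, 777 and 781, and was the member below 0.5 throughout. At like depth its ratios were 0.5203 to 0.826.

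Immediate early genes, which neuronal activity induces, were higher in granule cell layer spots without exception among the 9 tested, each above 1 in all 4 libraries against 32.8% of all tested genes. Nr4a1 stood at 340.5, 384, 243 and 243 CPM against 144, 153, 102 and 108 and Fosb at 79.8, 72, 23.9 and 23.4 against 35.3, 34.1, 9.64 and 8.54, and these were the 2 over 2-fold in each library. Egr1 stood at 345, 403, 309 and 290.1 CPM against 87.5, 115, 172 and 179, Arc at 164, 202, 117 and 127 against 58.7, 68.4, 70.1 and 72.9 and Npas4 at 134, 62.4, 67.5 and 46.7 against 39, 52.6, 24.2 and 25.8. Fos had ratios of 1.43, 1.69, 1.46 and 1.54. All but Npas4 kept ratios above 1 in every library at like depth, where Arc reached 2.06, 2.48, 2.03 and 2.71. Granule cell layer levels of Fosb were higher in libraries 1 and 2 than in libraries 3 and 4, 3.42-fold between the highest and the lowest, from 34, 15, 17 and 12 UMIs. The list overlapped with the score in spots. Of granule cell layer spots, 42.2%, 23.6%, 34.6% and 31.9% were also in the top 10% by the share of immediate early gene UMIs. Each library's top 10% is 10.0% of its spots. The top 10% by this list had medians of 1931.5, 3059, 5752.5 and 8601 UMIs. Both rankings divide by total UMIs, and the part of depth in this and the other overlaps was not tested.

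Of 8 neuroblast genes tested, 3 were above 1 in all 4 libraries, close to the 32.8% of all genes, and 1 was over 2-fold, with 0 at like depth. Dcx, doublecortin, a microtubule-binding protein of migrating neurons, stood at 134, 197, 215 and 187 CPM against 67.3, 76.4, 62.8 and 55.1. The noncoding transcript Dlx6os1 had 195, 221, 145 and 115 CPM against 83.5, 89.1, 42 and 33.8 and was the 1 of 8 over 2-fold in all libraries; it overlaps Dlx6 on the opposite strand, and the sources used here do not state whether strand was used in counting. Cd24a, a surface protein of neuroblasts, stood lower at 16.4, 9.601, 30.9 and 25.3 CPM against 53, 43.7, 32.1 and 30.4. Sox11 had 10, 4, 40 and 15 UMIs and Igfbpl1 4, 4, 19 and 19. Of granule cell layer spots, 21.1%, 27.8%, 24.6% and 29.8% were also among the top 10% by the neuroblast list, which holds Dlx6os1 and Dcx. The top 10% by this list had medians of 3556, 3751, 5035 and 5304 UMIs.

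**Figure D3:**
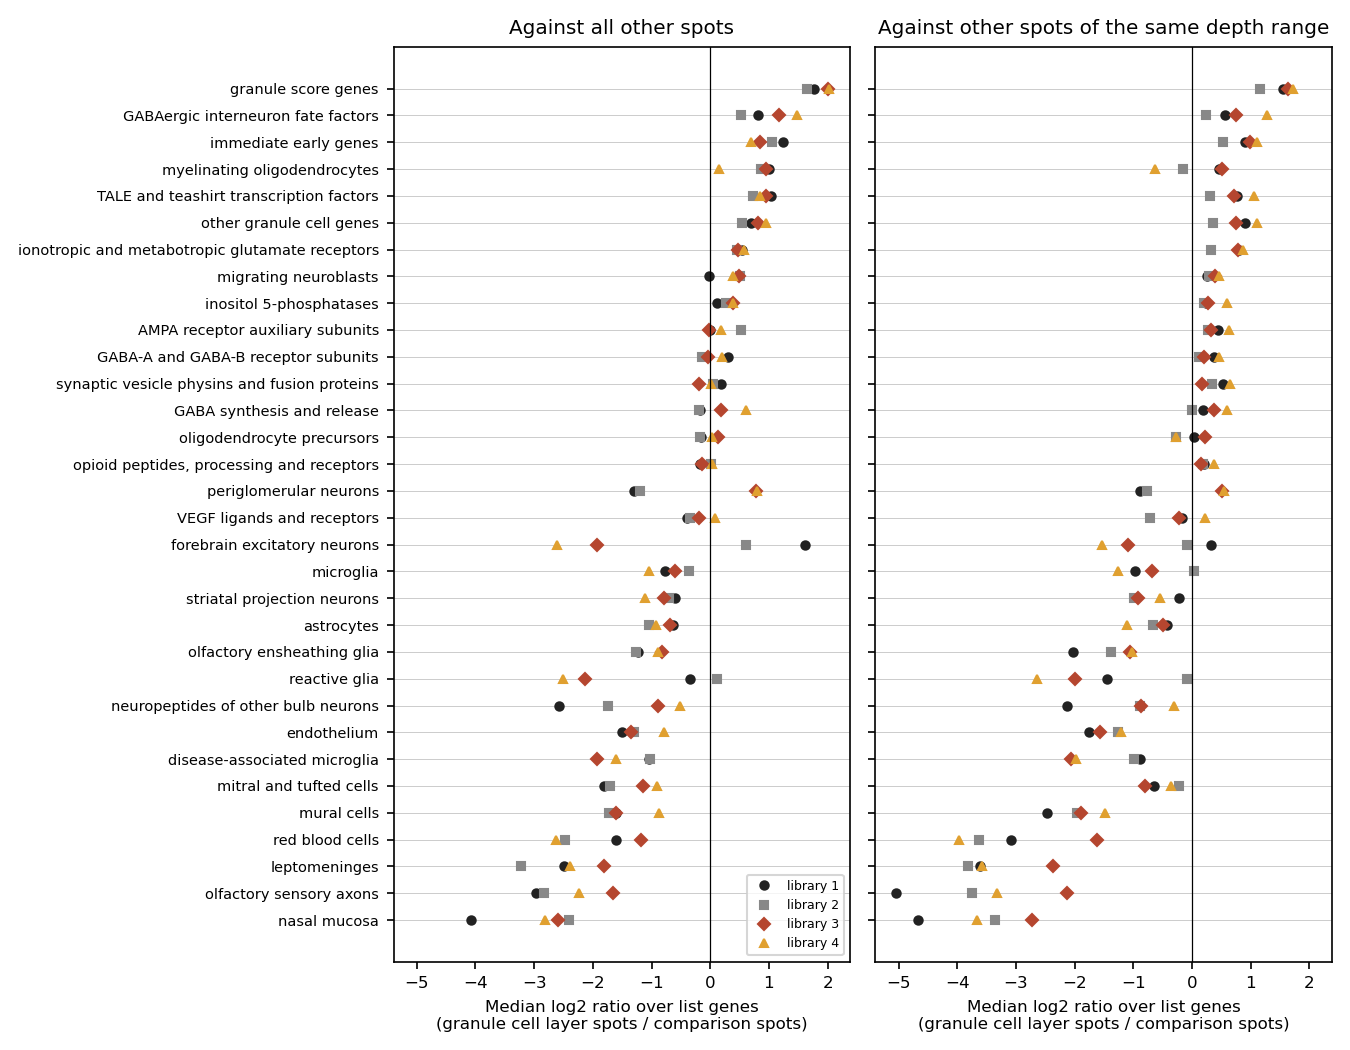
Median log2 ratio of granule cell layer spots to other spots over the tested genes of each list with at least 3, by library, against all other spots (left) and against those of like depth (right). Granule cell lists lie right of 0, and sensory axon, leptomeningeal and nasal mucosa lists lie far left in both panels, between -1.66 and -5.04, while myelin and forebrain neuron lists shift between panels or libraries.

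Mitral and tufted cell genes were lower. All 6 tested were below 1 in all 4 libraries, against 20.5% of all tested genes, and 2 were below 0.5. Cdhr1, a cadherin of these output neurons, stood at 185, 154, 166 and 204 CPM against 794, 698, 359 and 325, and Eomes, their T-box factor, at 49.3, 57.6, 38 and 40.9 against 214, 183, 91.6 and 89.5. Reln, the secreted protein reelin, had ratios of 0.245, 0.363, 0.442 and 0.6003, and Tbx21 of 0.531, 0.211, 0.688 and 0.924. At like depth, 4 of the 6 stayed below 1 in all libraries, with ratios of 0.504 to 0.8798 for Cdhr1 and 0.507 to 0.741 for Eomes. In libraries 1 to 3 none of the granule cell layer spots were among the top 10% by this list, a full count of these spots. The upper exact binomial limits of 2.20%, 4.99% and 2.80% treat spots as independent and measure no spread between sections or animals. In library 4 the share was 2.13%. The top 10% by this list were deeper spots, with medians of 12705.5, 11733, 12499.5 and 13690 UMIs, and the part of depth in the overlap was not tested.

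Peptides of other bulb neurons were low or sparse. Cck, of tufted cells, stood at 113, 110.4, 229 and 193 CPM against 1056, 873, 1031 and 977, and Trh at 42.3, 48, 21.1 and 25.3 against 265, 267, 52.9 and 57.4. Nppa had 2, 4, 2 and 2 UMIs. Npy stood at 72.8, 81.6, 163 and 257 CPM against 269, 281, 305 and 277, Sst at 7.04, 52.8, 78.8 and 175 against 28.3, 29.3, 132 and 170.3 and Vip at 11.7, 14.4, 90.02 and 50.6 against 77, 69.4, 74.1 and 73.8; within granule cell layer spots each of these was higher in libraries 3 and 4 than in library 1. Of 9 tested, 3 were below 0.5 in every library and 0 were above 1 in every library.

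Th, tyrosine hydroxylase of dopaminergic periglomerular cells, was alike in granule cell layer spots at 239.5, 235, 208 and 226 CPM but stood at 595, 544, 117 and 109.6 CPM elsewhere, which gave ratios of 0.402, 0.433, 1.77 and 2.06. The other dopaminergic genes were close to the floor, with 1, 1, 7 and 2 UMIs for Ddc, 2, 1, 4 and 2 for Slc18a2 and 1, 0, 0 and 0 for the dopamine transporter Slc6a3. Calb1 stood at 4.696, 4.8, 9.85 and 9.73 CPM against 19.3, 20.5, 72 and 79.4, and Pax6 had ratios of 0.561, 0.622, 1.76 and 1.78. The list median of log2 ratios was -1.31, -1.19, 0.78 and 0.79.

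Myelin genes were the glial exception. Mobp, myelin-associated oligodendrocyte basic protein, stood at 495, 418, 549 and 448 CPM against 179, 185, 172 and 212 and was the 1 of 8 over 2-fold in all 4 libraries. Mbp stood at 1606, 1402, 2151 and 1493 CPM against 687, 709, 729 and 936. At like depth the ratios of Mobp were 1.69, 0.885, 2.14 and 1.07 and of Mbp 1.61, 0.995, 2.06 and 0.8304, and 0 of the 8 were above 1 in all libraries, and in library 2 Mobp and Mbp stood below 1. Decile 2 held more myelin RNA than decile 1 in libraries 2 and 3, with 2722, 3088, 4373 and 2495 summed CPM in libraries 1 to 4 against 3111, 2823, 4051 and 2801. Of granule cell layer spots, 33.7%, 22.2%, 26.2% and 12.8% were among the top 10% by the myelin list. The top 10% by this list had medians of 2553, 2654.5, 5290 and 6100.5 UMIs. Oligodendrocyte precursor genes were sparse, and Pdgfra had 3, 4, 12 and 13 UMIs.

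Astrocyte genes were below 1 in all 4 libraries for 7 of 7 tested. Aldoc stood at 648, 605, 767 and 773 CPM against 1001, 934, 952 and 1020.1, the water channel Aqp4 at 25.8, 24, 38 and 35 against 124, 124, 95.3 and 115 and the gap junction gene Gja1 at 72.8, 81.6, 80.2 and 85.7 against 175, 173, 208 and 203. Gfap stood at 79.8, 9.601, 269 and 220 CPM against 107, 86.7, 366 and 419.8, from 34, 2, 191 and 113 UMIs. At like depth 6 of the 7 were below 1 in all libraries, Slc1a2 being the exception (0.584 to 1.07).

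Genes of injury-associated glia were mostly lower in granule cell layer spots. Of disease-associated microglia 7 of 9 tested genes and of reactive glia 6 of 6 were below 1 in all 4 libraries, against 20.5% of all genes. At like depth these counts were 6 of 9 and 4 of 6. Many of these genes were higher in libraries 3 and 4 than in libraries 1 and 2, in granule cell layer spots and elsewhere. Serpina3n, of reactive astrocytes, stood at 16.4, 9.601, 191 and 128 CPM against 29.6, 32.1, 587 and 467, and Vim at 18.8, 19.2, 143 and 107 against 64.3, 73.8, 499 and 388. Lcn2 had 0, 0, 53 and 15 UMIs and C3 0, 0, 16 and 2. In libraries 1 and 2 both were at or under the floor in granule cell layer spots and below 1 CPM in other spots, so that no ratio is given there. Both are nevertheless counted among the 6 of reactive glia below 1. Vim, Lcn2, C3 and Timp1 contribute to the 4 of 6 tested genes counted below 0.5, and for the genes at 0 the list median of -0.35, 0.12, -2.13 and -2.51 rests on the prior count of 0.5 in libraries 1 and 2. Apoe, a lipid carrier of astrocytes and activated phagocytes, stood at 1296, 1128, 2440.3 and 1859 CPM against 3440.2, 3254, 5947 and 5647. Spp1 stood at 37.6, 24, 67.5 and 52.6 CPM against 146, 138, 347 and 253, and Lyz2 at 11.7, 33.6, 78.8 and 79.8 against 26.7, 27.7, 511 and 462. Lyz2 and Trem2 were above 1 in library 2, from 7 and 3 UMIs. Of the microglial genes, 5 of 6 tested were below 1 in all libraries, and C1qa had ratios of 0.579, 0.395, 0.414 and 0.325.

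Tissue at the surface of the bulb was least represented. Olfactory sensory axon genes were below 0.5 in all 4 libraries for 5 of 5 tested, with S100a5 at 82.2, 76.8, 50.6 and 62.3 CPM against 841, 666, 162 and 299 and Omp at 14.1, 9.601, 8.44 and 17.5 against 119, 85.1, 36.1 and 67.7. Of 7 leptomeningeal genes, 7 were below 1 and 5 below 0.5 in all libraries, and Ptgds stood at 564, 475, 1625 and 1116 CPM against 3162, 4449, 7981 and 5833. Ensheathing glia genes such as Fabp7 (0.178, 0.152, 0.293 and 0.232) and Apod (0.228, 0.186, 0.422 and 0.241) were low. No granule cell layer spot was in the top 10% by the leptomeningeal list, a full count of these spots in libraries 1 to 4. The upper exact binomial limits of 2.20%, 4.99%, 2.80% and 3.85% treat spots as independent and measure no spread between sections or animals. The top 10% by the leptomeningeal list had medians of 5578, 6505.5, 8087.5 and 6771.5 UMIs. Nasal mucosa genes were below 0.5 in all libraries for 4 of 5 tested, and Cyp2a5 stood at 4.696, 9.601, 14.1 and 17.5 CPM against 133, 77.4, 89.2 and 185. Its near-identical family members, and the paired Obp1 and globin genes, may share reads, so that single values for them are uncertain.

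Vessel genes were low too. Of the endothelial genes all 4 tested were below 1 in all libraries and 2 below 0.5, with the tight junction gene Cldn5 at 9.39, 19.2, 32.3 and 25.3 CPM against 75.5, 65, 94.3 and 96 and Itm2a at 25.8, 24, 29.5 and 33.1 against 92.1, 96.9, 75 and 68.1. Mural genes followed, with Vtn at 37.6, 38.4, 33.8 and 37 CPM against 130.4, 135, 101 and 104. Beta globin Hbb-bs stood at 176, 62.4, 315 and 189 CPM against 459, 351, 777 and 723. At like depth all 4 endothelial, all 4 mural and all 4 globin genes remained below 1 in every library.

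The VEGF system, which the transgene acts on, was examined in the same spots. Vegfa stood at 37.6, 43.2, 219 and 212 CPM in granule cell layer spots, from 16, 9, 156 and 109 UMIs, and at 53.8, 54.2, 186 and 159.8 CPM in other spots. Its levels were higher in libraries 3 and 4 than in libraries 1 and 2, both in granule cell layer spots, 5.84-fold between the highest and the lowest (3.49 to 10.5), and elsewhere, 3.46-fold. Ratios were 0.698, 0.797, 1.18 and 1.33. Flt1, which encodes VEGFR1, stood at 23.5, 24, 18.3 and 17.5 CPM against 38.4, 35.1, 24.9 and 25.7. Its ratios of 0.612 to 0.735 were below 1 in each library but rest on only 37 UMIs over the granule cell layer spots of all libraries. The counts of Flt1 may or may not include transcripts of the transgene, which was not tested. Vegfb stood at 155, 106, 143 and 144 CPM against 197, 181, 143 and 156, while Kdr, Nrp1 and Vegfc had at most 4 UMIs per library. Nrp2 had 3, 0, 9 and 19 UMIs.

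The Camk2a gene, whose promoter drives the transactivator, and Nrgn, a calmodulin-binding protein of forebrain neurons, varied less between libraries in granule cell layer spots than elsewhere. Nrgn was measured at 564, 480, 474 and 401 CPM in granule cell layer spots, against 97, 137, 1225 and 1286 in the remainder. For Camk2a the levels were 352, 350.4, 263 and 280.3 CPM in granule cell layer spots and 116, 135, 299.8 and 295 in the remainder. The highest and lowest library differed 1.41-fold for Nrgn and 1.34-fold for Camk2a in granule cell layer spots, and 13.3-fold and 2.59-fold in other spots, where libraries 3 and 4 were higher. Ratios ran from 0.312 to 5.81 for Nrgn and from 0.877 to 3.04 for Camk2a. Neurod6, a cortical gene that granule cells lack, stayed near the floor in granule cell layer spots, with 1, 0, 5 and 2 UMIs. Its level in other spots was lowest in library 1 and highest in library 4, 7.18-fold apart. Lmo3, of the same list, had ratios of 0.887 to 4.41, and among granule cell layer spots its level was highest in library 1. The list median of log2 ratios was 1.61, 0.61, -1.92 and -2.61. Spots in the top 10% by the forebrain excitatory neuron list made up 41.6%, 25%, 0% and 0% of granule cell layer spots. The top 10% by this list had medians of 1532.5, 2399.5, 14869.5 and 14924 UMIs, and the part of depth in the overlap was not tested. Whether the transgene was active in these spots was not tested.

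**Figure D4:**
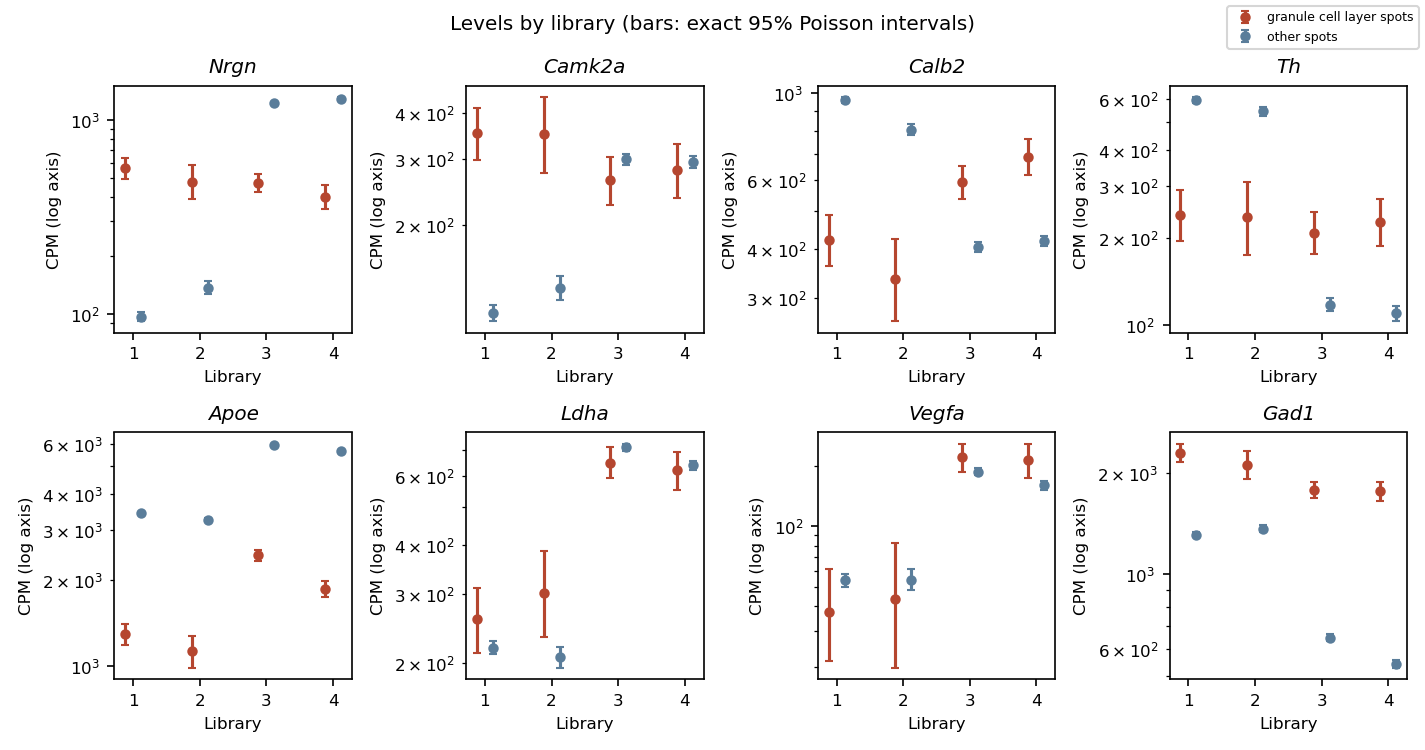
Levels of 8 genes by library in granule cell layer spots (red) and other spots (blue), in CPM on a log axis, with exact 95% Poisson intervals. Nrgn, Camk2a and Th lie within 1.41-fold across libraries in granule cell layer spots and differ more in other spots, whereas Ldha and Vegfa differ between libraries in both.

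The label was checked against the striatum, whose projection neurons also express Penk and Meis2. The dopamine receptor genes were at or near 0 in granule cell layer spots, with 0, 0, 1 and 0 UMIs for Drd1 and 0, 0, 1 and 0 for Drd2. Over all kept spots they had only 104 and 134 UMIs, so that such counts cannot tell a lower level from a like one. Ppp1r1b stood at 14.1, 4.8, 15.5 and 17.5 CPM against 25.2, 23.1, 34.4 and 39.7, and Adora2a had 1, 1, 3 and 3 UMIs. Other genes of the list were present at low levels, with 5, 7, 5 and 9 UMIs and ratios of 1.68, 3.66, 1.14 and 2.98 for Rgs9, and 1, 0, 17 and 26 UMIs for Tac1, which had ratios of 1.76 and 2.24 in libraries 3 and 4. Of 9 striatal genes 3 had enough UMIs to be tested, and 0 were above 1 in all 4 libraries. The check was thus mixed. Ppp1r1b was low, Drd1 and Drd2 were too sparse, and Rgs9 was above 1 in all 4 libraries from few UMIs. Tac1 was above 1 in libraries 3 and 4. Genes of mitral cells and surface tissue were low too, but they cannot tell these spots from striatum, which also lacks such tissue. Of 8 other granule cell genes, 4 were above 1 in all libraries. Forebrain genes, through Nrgn and Camk2a, stood higher in libraries 1 and 2. The label stands for the rule by the 6 score genes.

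Outside the lists, the 20 genes with the highest ratio in their least favourable library included several neuronal signalling genes. Cacna1h, a T-type calcium channel, led with 244, 264, 149 and 146 CPM against 52.5, 70.2, 39.2 and 36.6. Cpne6, a calcium-dependent phospholipid-binding protein, was the most abundant at 1151, 1056, 1315 and 1676 CPM against 265, 311, 320.1 and 308. Grm4, a presynaptic glutamate receptor, stood at 249, 259, 173 and 202 CPM against 70.7, 82.5, 37.6 and 30.2 and Rgs12, a regulator of G protein signalling, at 263, 240, 204 and 197 against 56.5, 75, 61.3 and 52.3. Gpsm1, another G protein regulator, stood at 1078, 1042, 722 and 736 CPM against 311, 359.7, 192 and 146, and Sez6, a synaptic membrane protein, at 491, 581, 682 and 679 against 178, 193, 171 and 168. Further members were the potassium channel Kcnb2 (3.01 to 4.49), the calcium-binding Necab2 (2.79 to 5.24), the R-spondin receptor Lgr6 (2.85 to 5.46), the collagen VI chain Col6a1 (2.99 to 4.87), the histone methyltransferase Dot1l (2.98 to 3.18) and the noncoding transcript Ftx (2.97 to 3.27), with the range of ratios over libraries in brackets. The remaining 8, Eml5, Metap1d, Leng8, Amy1, Rfx1, Ptpn14, Actn2 and Ctxn3, had lowest ratios between 2.69 and 2.84. Amy1 has near-identical copies and is uncertain.

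None of these 20 was over 2-fold in all 4 libraries at like depth, although each stayed above 1, for example Cacna1h at 2.37, 1.59, 2.98 and 2.98 and Cpne6 at 2.86, 1.702, 2.81 and 4.14. Their lowest ratio in that comparison was in library 2 for most of them, and the like-depth spots of library 2 had the highest median score, 24.9 per 10000. The 16 genes over 2-fold against spots of like depth, named after their values were seen, were the score genes Meis2, Penk, Inpp5j, Shisa8 and Tshz1 with Amigo2, Dusp5, Syt6, Plch2, Car7, Cntnap4, Ccsap, Mctp1, Fam43b, Fam184a and the immediate early gene Arc. Amigo2, an adhesion protein, had ratios between 2.22 and 3.54 across libraries in that comparison, Dusp5, a phosphatase of ERK kinases, between 2.33 and 3.66, and Cntnap4, a neurexin-family protein of interneurons, between 2.004 and 6.07. With scores computed from thinned spots, 18 genes were higher and 7 of the 20 named genes were among them.

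The 10 genes outside the lists with the lowest ratios had few UMIs in granule cell layer spots. Coch had 0, 1, 4 and 1 UMIs in granule cell layer spots and stood at 37.3, 39.1, 40.3 and 54.4 CPM in other spots, and the organic anion transporter Slc22a6, of the meninges, had 0, 0, 1 and 1 UMIs against 10.6, 16.5, 28.1 and 20.2 CPM. Crym and Mal2 had 0, 0, 11 and 8 and 0, 0, 5 and 6 UMIs, against 4.74, 3.99, 101 and 100.2 and 4.43, 4.59, 70.8 and 80.04 CPM in other spots. In libraries 1 and 2 these other-spot levels lay under the floors of 7.04 and 14.4 CPM, so that 0 UMIs there do not show a lower level. Gpx6, of the olfactory mucosa, and Bpifb6 had 0, 0, 12 and 7 and 0, 0, 10 and 6 UMIs. The others were Steap4, Prdm8, Mup4 and Cd59a, with at most 6 UMIs in granule cell layer spots of any library, and Mup4 belongs to a family of near-identical genes. In other spots Steap4, Prdm8 and Mup4 differed 73.8, 72.0 and 558-fold between the highest and the lowest library. Their ratios therefore say little for the libraries where other spots were low.

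Along the ranking of spots, other granule cell genes were highest in decile 1 but did not decline throughout. Summed over the list they stood at 5023, 4752, 4322 and 4332 CPM in decile 1, 4513, 4731, 3825 and 3158 in decile 2 and 3104, 3137, 2175 and 1974 in decile 5, 2581, 2451, 1529.7 and 1583 in decile 8 and 1723, 1991, 1649 and 1958 in decile 10. In libraries 3 and 4 decile 10 thus stood above decile 8. Pcp4 in library 4 stood at 1216 CPM in decile 10, above the 885 CPM of decile 3. Pcp4 in library 2 was higher in decile 2 (2231 CPM) than in decile 1 (2155 CPM), and Gng4 stood at 876, 874, 688 and 714 CPM in decile 1 and 757, 728, 567 and 422 in decile 2. Cdhr1 stood at 185, 154, 166 and 204 CPM in decile 1 and 759, 631, 638 and 522 in decile 4. With decile 2 as the only comparison, 0 genes were over 2-fold higher in all 4 libraries and 6 were below 0.5. Granule cell layer spots thus grade into the spots ranked next.

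**Figure D5:**
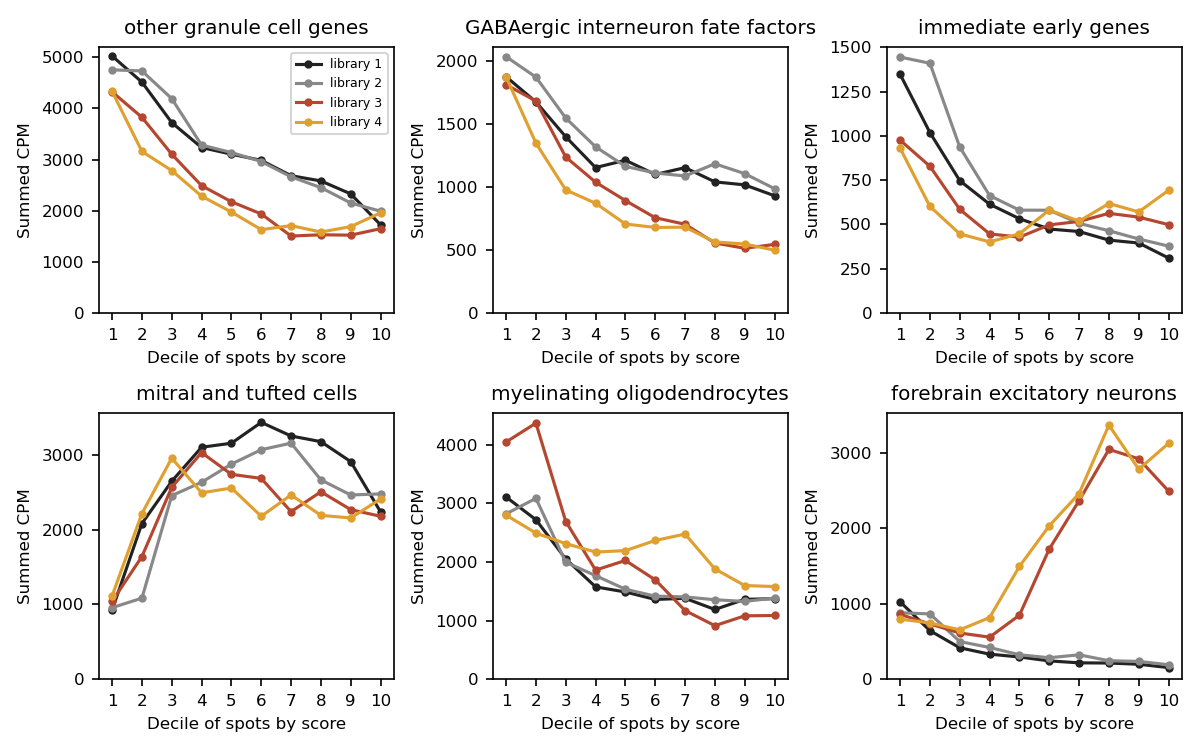
Summed CPM of 6 gene lists in deciles of spots by score, by library, where decile 1 is the granule cell layer spots. Granule cell and fate factor lists are highest in decile 1, mitral and tufted cell genes are lowest there (923 to 1112 CPM), and forebrain genes are highest in decile 1 in libraries 1 and 2 but in decile 8 in libraries 3 and 4.

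Within granule cell layer spots, the spread between libraries was modest for most abundant genes. The spread was measured for 648 genes, those that reached 500 UMIs over these spots and 3 in each library. Of these, 21 (3.24%) differed over 2-fold between the highest and the lowest library, and 33 (5.09%) did so in the other spots. Among the 21 genes, 15 were highest in library 3 or 4 and 6 in library 1 or 2, and 11 were also over 2-fold in the other spots. A ribosomal protein gene and a gene model without a name are among the 21 and are not described. The count was 7 to 14 with any 1 library left out, at 14, 8, 7 and 9 without libraries 1 to 4, and 38 when spots were chosen after thinning.

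The widest was Apod, a lipid carrier of ensheathing glia and meninges, at 167, 154, 668 and 348 CPM, followed by the meningeal Ptgds at 564, 475, 1625 and 1116 CPM. Among neuronal genes, Tubb2b, a tubulin of growing neurites, stood at 185, 139, 288 and 366 CPM. Ldha, lactate dehydrogenase A of glycolysis, stood at 258, 302, 648 and 619 CPM and its other-spot levels of 219, 207, 709 and 638 CPM differed likewise. Higher in libraries 3 and 4 too were the astrocytic Clu at 491, 427, 1014 and 849 CPM, Mt1, a metallothionein, at 1606, 1272, 2881 and 2472 CPM and Mif, a cytokine with tautomerase activity, at 362, 317, 686 and 720.3 CPM. Stmn1, a microtubule regulator, stood at 392, 346, 623 and 742 CPM, Tmsb10, an actin-binding peptide, at 524, 576, 951 and 1088 and Marcks, a membrane-bound kinase substrate, at 207, 187, 381 and 331. Gnao1, a G protein alpha subunit, was lowest in library 2 at 279, 202, 361 and 409 CPM.

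Among the genes higher in libraries 1 and 2 were the score genes Shisa8, 2.11-fold between highest and lowest library, and Inpp5j, 2.06-fold. Smarcd1, a chromatin remodelling subunit, stood at 502, 446, 236 and 189 CPM, Kcnab3, a potassium channel subunit, at 355, 432, 221 and 206 and Rprml at 387, 413, 201 and 241. Prkca was 1.96-fold apart. For Shisa8 and Inpp5j the other spots differed more between libraries than the granule cell layer spots. The score limits also differed between libraries, and with 1 common limit of 31.8 score UMIs per 10000 the spots taken were 220, 140, 72 and 30 in libraries 1 to 4 and 11 genes were over 2-fold apart. The part that depth, with medians of 1679.5 to 5015 UMIs, has in these spreads was not tested.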

How the data were processed

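Visium spatial RNA libraries of olfactory bulb sections were used. Per the file headers, the deposited matrix holds raw UMI counts of 32285 genes in 4713 spots, made with Space Ranger 1.3.1; the submitters' processing notes name GRCm39, and the sources used here do not state the strand setting. All 4 libraries share 1 matrix, and their numbers match no label, so no groups were compared, nothing was tested and no p-value is given. The members and lists were chosen with earlier results of these data known.

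Spots under 500 UMIs (97) were set aside, which left 4616, and no doublet caller was run. UMIs were summed over spots and divided by their total (CPM). Ratios have exact conditional binomial intervals, levels exact Poisson intervals and shares exact Clopper-Pearson intervals, all at 95% and for counting error only. List medians use log2 ratios with a prior count of 0.5. Genes with at least 500 UMIs over the kept spots entered the counts; for the spread between libraries, at least 500 over the granule cell layer spots and 3 in each library.

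Named were the members of the lists, the 20 highest and 10 lowest genes outside them by the least favourable library's ratio, and the 20 widest between libraries, without mitochondrial, ribosomal protein and unnamed genes; some genes named by this rule are not reported here. Alternatives changed the spot minimum, the share of spots taken, the score, the gene minimum, the weighting of spots, the libraries, the comparison spots and the depth; 18 were planned and 2 added after the depth was seen. Scripts were tested on simulated data. Python 3.11.15, numpy 2.4.6, scipy 1.17.1, pandas 2.3.3 and matplotlib 3.10.9 were used.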

Additional observations from a re-analysis of the deposited data

How the results depend on the processing

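Of 201 genes over 2-fold higher in every library, the count became 125 with the top 20% of spots, 99 with each score gene weighted alike, 117 with the mean of per-spot CPM and 131 without mitochondrial genes. It was 0 with decile 2 as the comparison, 18 with scores from thinned spots and 16 against other spots of like depth. For the 281 genes below 0.5 it became 442 with a minimum of 200 UMIs per gene, 6 with decile 2 as the comparison and 76 with scores from thinned spots. For the 21 genes over 2-fold apart between libraries it became 7 with the top 5% of spots, 78 with the top 20%, 34 when spots were chosen on one part of the UMIs and measured on the other, 83 with a minimum of 200 UMIs and 9 with 1000. It was 14, 8, 7 and 9 without libraries 1 to 4, 11 with 1 common score limit and 38 with scores from thinned spots. The cause was not tested, apart from the number of genes and libraries that an alternative itself removes. Of 52 alternative counts, 114 score gene ratios and 576 list medians, 20, 39 and 103 moved beyond their tolerance, 1.5 times for a count and 0.3 on the log2 scale for a median. List medians near 0 could change sign, as for microglia in library 2, which went from -0.36 to 0.02 against spots of like depth. No paired analysis was possible because the libraries carry no group or replicate number. Depth limits genes near the floor, above all in library 2.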

Other observations

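In several genes libraries 1 and 2 lay together and apart from libraries 3 and 4, given here as values of libraries that no label places in a group. Vegfa stood at 37.6, 43.2, 219 and 212 CPM in the granule cell layer spots of libraries 1 to 4. Serpina3n stood at 16.4, 9.60, 191 and 128 CPM there, and Ldha at 258, 302, 648 and 619 CPM. Depth moved the same way, with medians of 1679.5, 2241, 4683.5 and 5015 UMIs per spot, and its part in the result was not tested. Dlx1, at 389.8, 442, 318 and 360.2 CPM, did not divide the libraries in this manner by more than 1.39-fold.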
